A study of Mus musculus with 2 samples.

Results

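Gluconeogenesis, the making of new glucose, was described here through 8 genes taken from the matrix by symbol, out of 32285 genes: Pcx, Pck1, Pck2, Fbp1, G6pc, Slc37a4, Sds and Tat. Nuclei came from frozen livers of mice with hepatocellular carcinoma (HCC), from microdissected tissue of the remaining tumour. The labels list 2 samples, MRD-HCC 1 and MRD-HCC 2, both of liver with the disease state HCC, and give no age, genotype, strain, treatment or tumour model. The deposited matrix pools its nuclei under 1 barcode suffix, so all values come from 1 pooled sample with no replicate, no test was possible, and each interval printed is an exact 95% interval that covers counting error only.

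Hepatocytes make glucose during fasting and release it to the blood. Pyruvate carboxylase (Pcx) turns pyruvate into oxaloacetate inside mitochondria, and phosphoenolpyruvate carboxykinase, cytosolic (Pck1) or mitochondrial (Pck2), turns oxaloacetate into phosphoenolpyruvate. Fructose bisphosphatase (Fbp1) removes a phosphate further up the chain, and in the endoplasmic reticulum the transporter Slc37a4 brings in glucose phosphate from which the catalytic subunit G6pc frees glucose. Serine dehydratase (Sds) and tyrosine aminotransferase (Tat) feed carbon of amino acids towards the pathway and are textbook targets of fasting hormones. Around the portal vein hepatocytes are known to make more glucose than around the central vein.

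The classes of nuclei were selected on measured levels of marker genes in the same nuclei, and none of the 8 genes is among those markers. Hepatocyte-like tumour nuclei had Ccnd3, the cyclin D3 gene, at 10 or more per 10,000 UMIs (unique molecular identifiers). They also held a UMI of Gpc3 or H19, both known as fetal liver genes that liver tumours re-express. In 405 nuclei this was met with Pkhd1 under 15, summed ductal markers under 15 and summed Pkhd1-high tumour markers under 10 per 10,000. Pkhd1-high tumour nuclei (1956) and ductal nuclei (1065) were taken from the remaining nuclei. They had Pkhd1, a gene of ciliated duct epithelium, at 5 or more per 10,000 and were parted by further markers, summed to 10 or more. The ranges overlap for Pkhd1 and ductal markers, so some hepatocyte-like tumour nuclei may also meet the ductal limits. Hepatocytes (1829) had Ccnd3 under 10 per 10,000 and were divided by zone markers into 1104 periportal, 295 intermediate and 430 pericentral nuclei. Endothelial nuclei (425), which are not expected to make glucose, and free RNA, the UMIs of 49929 barcodes that were not called as nuclei and held from 500 to under 850 UMIs, gave the background. The genes, the classes and every limit but that on Ccnd3 were chosen with values of these data in view, so levels between classes are a description.

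Most markers followed the class names, though some of them had chosen the classes. All 8 markers of hepatocyte-like tumour were at least 2-fold higher in those nuclei than in hepatocytes; Ccnd3, Gpc3 and H19 among them had been used for the selection, and Il34, Sema5a, Igf2, Afp and Spink1 had not. These markers did not all part the class from ductal nuclei: Ccnd3 was at 4780 CPM (UMIs per 1000000 UMIs) in hepatocyte-like tumour and 6299 CPM in ductal nuclei, Gpc3 at 366 CPM and 543 CPM, and Il34, Sema5a and Spink1 were also higher in ductal nuclei. Of 10 hepatocyte markers, none of which had been used to choose hepatocyte-like tumour, 7 were at least 2-fold higher there than in Pkhd1-high tumour nuclei, the exceptions being Serpina1a, Alb and Cyp3a11. In hepatocytes the count was 6 of 10, with Ttr as a further exception, and 4 of the 6 (Cps1, Hnf4a, Abcb11 and Ppara) had been used to choose them. The hepatocyte-like tumour class was mixed: 246 of its 405 nuclei (60.7%) fell in 1 of 23 clusters, and 26 (6.42%) were called doublets, against 17 of 1829 hepatocytes (0.929%). Median depth was 6426 UMIs in hepatocyte-like tumour, 7085 in Pkhd1-high tumour and 4195 in ductal nuclei, against 13860 in hepatocytes. Haemoglobin genes, which none of these cells should express, stood at 251 CPM in hepatocyte-like tumour, 201 CPM in Pkhd1-high tumour and 293 CPM in ductal nuclei, against 132 CPM in hepatocytes and 1437 CPM in free RNA. Endothelial nuclei stood above these classes of nuclei, at 460 CPM. Taking haemoglobin and other-lineage genes as wholly free RNA gave a free share of 20.03% in hepatocyte-like tumour, 16.5% in Pkhd1-high tumour and 22.2% in ductal nuclei, against 10.6% in hepatocytes.

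The DNA upstream of Pck1 and Pcx is shown because these genes encode the enzymes that start the pathway, and in hepatocyte-like tumour Pcx was lower than in hepatocytes while Pck1 was not. RefSeq's promoter table (GRCm38.p6) held 7 of the 8 genes, Sds not among them. Both stretches are on the plus strand and end before the annotated gene starts, at chr2:173152823-173153047 for Pck1 and chr19:4510222-4510471 for Pcx. For Pcx the table gives another start inside the annotated gene, with upstream bases at chr19:4594069-4594318. That stretch was searched below but is not printed. Which Pcx start these nuclei used was not tested. Capitals mark TTACGTCA, a form of the cAMP response element, the DNA site through which glucagon signalling is known to act on Pck1.
Pck1: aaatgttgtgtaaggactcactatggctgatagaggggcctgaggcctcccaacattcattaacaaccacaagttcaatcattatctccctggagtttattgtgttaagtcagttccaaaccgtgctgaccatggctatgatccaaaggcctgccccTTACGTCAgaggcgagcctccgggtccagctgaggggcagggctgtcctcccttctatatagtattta
Pcx: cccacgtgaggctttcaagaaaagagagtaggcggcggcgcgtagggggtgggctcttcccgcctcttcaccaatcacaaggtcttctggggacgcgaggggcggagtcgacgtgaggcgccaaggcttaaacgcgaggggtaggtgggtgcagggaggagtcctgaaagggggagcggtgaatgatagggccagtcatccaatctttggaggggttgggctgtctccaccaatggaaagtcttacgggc
On either strand, 6 motifs were searched in the 250 bases before each of the 10 annotated starts of the 7 genes: TGACGTCA and TTACGTCA (cAMP response element), GTAAACA (FOXO), CAAAGTCCA (HNF4), a paired site of the glucocorticoid receptor and TTGCGCAA (C/EBP). The TTACGTCA of Pck1, at bases -93 to -86 from the RefSeq start, was the only match, and 0.447% of 32851 promoters of this length hold that word. TGACGTCA was held by 1.55% of them, GTAAACA by 3.17%, CAAAGTCCA by 0.384%, the glucocorticoid receptor site by 0.387% and TTGCGCAA by 0.164%.

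Summed over the class, hepatocyte-like tumour held most gluconeogenesis transcripts at levels near those of hepatocytes, with a lower level of Pcx. Of the 8 genes, 1 (Pcx) was at least 2-fold lower in hepatocyte-like tumour than in hepatocytes, where 7.10% of 15526 genes with 20 or more UMIs over both classes were, and 1 (Pck2) was at least 2-fold higher, where 18.5% were. The Pcx call was lost when nuclei of the tumour class also had to hold 4 hepatocyte genes at 6 or more, or 12 or more, per 10,000 UMIs, settings chosen after seeing the data, with log2 ratios of -0.99 and -0.89. The median log2 ratio of the 8 genes, with 1 CPM added, was -0.34, against 0.17 over all genes tested. The entry enzyme Pcx and the exit transporter Slc37a4 were thus the lowest relative to hepatocytes, while Pck1, Fbp1, G6pc, Sds and Tat lay within 1.5-fold. Against periportal hepatocytes alone, 1 gene (Pcx) was at least 2-fold lower, where 5.74% of 14563 genes were, and 1 (Pck2) higher, where 18.9% were. Against pericentral hepatocytes none of 7 genes with enough UMIs was at least 2-fold lower, where 6.77% of 13748 genes were, and 2 (Pck1 and Sds) were higher, where 18.5% were.

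**Figure D1:**
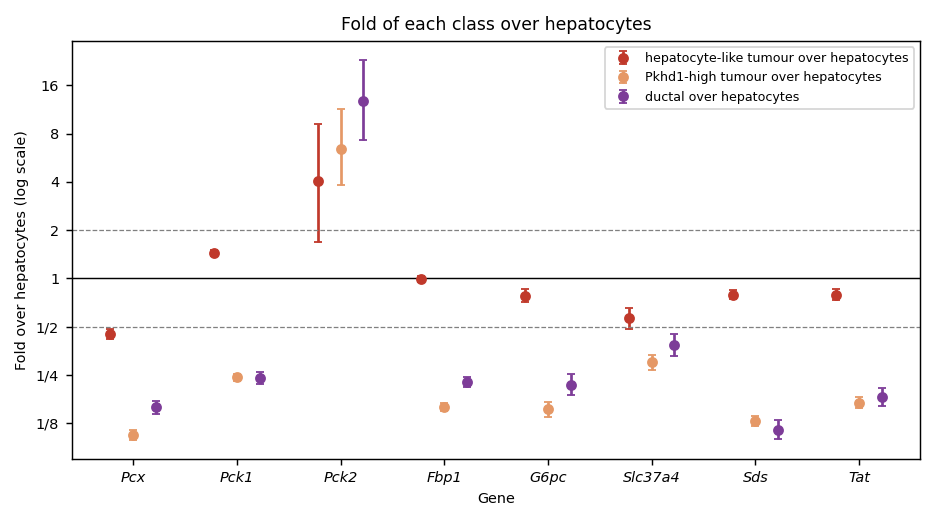
Fold of hepatocyte-like tumour, Pkhd1-high tumour and ductal nuclei over hepatocytes for each gene, on a log axis. Points are ratios of summed UMIs in CPM, vertical lines are exact 95% intervals for counting error, dashed lines mark 2-fold, and Pcx is the gene whose hepatocyte-like tumour point lies below the lower dashed line.

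Pcx, on chromosome 19 from 4510472 to 4621752 (mm10), stood at 229 CPM (214 to 245) in hepatocyte-like tumour, from 870 UMIs, and 509 CPM (501 to 518) in hepatocytes, from 14978 UMIs. This was 2.22-fold (2.08 to 2.38) lower, and periportal (579 CPM), intermediate (444 CPM) and pericentral (399 CPM) hepatocytes were each above the tumour class. Among nuclei with 5000 or more UMIs, the median Pcx level was 1.43 per 10,000 UMIs in 270 hepatocyte-like tumour nuclei and 5.06 in 1041 periportal nuclei, with 35.2% and 2.88% of nuclei at 0. With each nucleus thinned to 2000 UMIs, 26.4% (22.2% to 31.0%) of hepatocyte-like tumour nuclei and 57.2% (54.9% to 59.5%) of hepatocytes held a Pcx UMI, against 9.18% (6.61% to 12.3%) of endothelial nuclei. The lower Pcx was therefore spread over many nuclei. In the 246 nuclei of the leading tumour cluster Pcx was at 175 CPM, 2.91-fold (2.62 to 3.26) below hepatocytes, and in the other 159 nuclei of the class at 286 CPM.

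Pck1, on chromosome 2 from 173153048 to 173159273, stood at 691 CPM (665 to 718) in hepatocyte-like tumour and 478 CPM (470 to 486) in hepatocytes, 1.45-fold (1.39 to 1.51) higher. Periportal hepatocytes alone were at 680 CPM (667 to 692), so that the tumour class was 1.02-fold (0.975 to 1.06) of periportal and 4.66-fold (4.36 to 4.99) of pericentral hepatocytes. One nucleus held 413 of the 2627 Pck1 UMIs of the tumour class, at a depth of 19913 UMIs, and it lay in the leading cluster and was not called a doublet. Without it the class stood at 586 CPM (562 to 611), 1.23-fold (1.17 to 1.28) of hepatocytes and 0.862-fold (0.823 to 0.902) of periportal hepatocytes. Periportal hepatocytes also held such a nucleus, with 465 of their 11582 Pck1 UMIs, and without the 2 highest nuclei of each class hepatocyte-like tumour stood at 547 CPM and periportal hepatocytes at 639 CPM. For the class as a whole, the order of hepatocyte-like tumour and periportal hepatocytes thus turned on 1 nucleus. The counting intervals do not cover this spread between nuclei. The order also differed between parts of the class. In the leading tumour cluster Pck1 was at 968 CPM, and at 763 CPM (725 to 803) without that nucleus, above periportal hepatocytes. In the other 159 nuclei of the class it was at 403 CPM (374 to 433), below them. The level also depended on how the class was drawn. With classes taken from whole clusters (555 nuclei), Pck1 reached 1062 CPM, 2.37-fold of hepatocytes, with periportal hepatocytes at 628 CPM. The mean over nuclei gave 1.10-fold of hepatocytes.

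**Figure D2:**
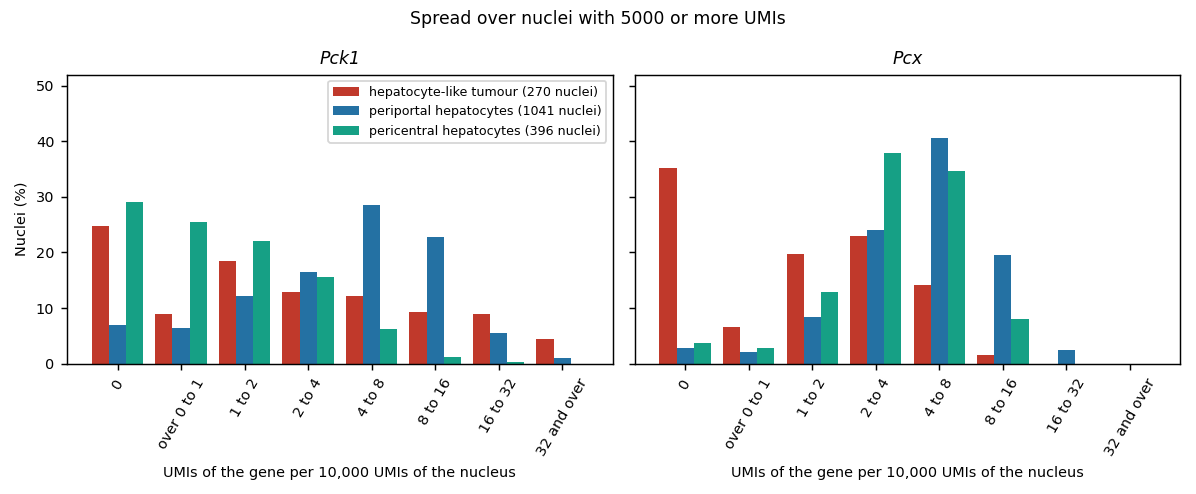
Share of nuclei (%) by level of Pck1 (left) and Pcx (right), in UMIs per 10,000 UMIs of the nucleus, for hepatocyte-like tumour, periportal and pericentral nuclei with 5000 or more UMIs. For Pck1 the tumour class has 24.8% of nuclei at 0 and 4.44% at 32 or more; for Pcx it has 35.2% at 0 and none at 16 or more.

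The spread of Pck1 over nuclei was wider in hepatocyte-like tumour than in periportal hepatocytes. Among nuclei with 5000 or more UMIs, the median was 1.84 per 10,000 in hepatocyte-like tumour, against 5.06 in periportal and 0.821 in pericentral hepatocytes, and the 90th percentile was 19.97 in the tumour class, against 13.2 in periportal and 3.48 in pericentral hepatocytes. The 10% of nuclei with most Pck1 UMIs held 64.8% of the class's Pck1 UMIs in hepatocyte-like tumour and 40.2% in periportal hepatocytes. Depth differed too, with a median of 9092.5 UMIs in the deeper tumour nuclei and 13902 in periportal ones, and its part in the wider spread was not tested. With nuclei thinned to 2000 UMIs, 47.2% (42.2% to 52.2%) of hepatocyte-like tumour nuclei and 58.3% (55.4% to 61.3%) of periportal nuclei held a Pck1 UMI, against 23.7% of pericentral and 24.2% of endothelial nuclei.

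Fbp1, on chromosome 13 from 62864753 to 62888282 on the minus strand, was at 574 CPM (550 to 598) in hepatocyte-like tumour and 576 CPM (567 to 585) in hepatocytes, a fold of 0.996 (0.952 to 1.04). The tumour value lay between periportal (677 CPM) and pericentral (397 CPM) hepatocytes, and 55.6% of thinned tumour nuclei held a UMI, against 63.1% of hepatocytes. G6pc, on chromosome 11 from 101367561 to 101377903, was at 122 CPM (111 to 133) in hepatocyte-like tumour and 156 CPM (151 to 160) in hepatocytes, 1.28-fold (1.16 to 1.41) lower. The tumour value was close to free RNA at 124 CPM. With the estimated free RNA taken out, G6pc was at 120 CPM in hepatocyte-like tumour and 159 CPM in hepatocytes. Its partner Slc37a4, on chromosome 9 from 44396852 to 44402968, was 1.77-fold (1.53 to 2.06) lower, at 50.01 CPM (43.1 to 57.6) in hepatocyte-like tumour and 88.5 CPM (85.1 to 92.0) in hepatocytes. Slc37a4 passed 2-fold lower when called doublets were left out, and in the leading cluster alone, at 2.17-fold (1.74 to 2.75).

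The amino acid enzymes were both 1.26-fold lower in hepatocyte-like tumour than in all hepatocytes. Sds, on chromosome 5 from 120476526 to 120483932, stood at 296 CPM (279 to 314) in the tumour class and 374 CPM (367 to 381) in hepatocytes. In hepatocytes this gene differed strongly by zone, with intermediate hepatocytes at 184 CPM (171 to 197). Against periportal hepatocytes, at 591 CPM, the tumour class was 0.501-fold (0.470 to 0.532), and against pericentral hepatocytes, at 20.1 CPM, it was 14.7-fold (12.5 to 17.5). Tat, on chromosome 8 from 109990437 to 109999803, was at 180 CPM (167 to 194) in hepatocyte-like tumour and 228 CPM (222 to 233) in hepatocytes. The tumour value was level with pericentral hepatocytes at 179 CPM and with free RNA at 181 CPM. With the estimated free RNA taken out, Tat was at 178 CPM in hepatocyte-like tumour and 232 CPM in hepatocytes.

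Pck2, the mitochondrial carboxykinase gene on chromosome 14 from 55540266 to 55551242, was nearly absent from hepatocytes. It had 10 UMIs in hepatocyte-like tumour (2.63 CPM, 1.26 to 4.84) and 19 in hepatocytes (0.646 CPM, 0.389 to 1.01), a fold of 4.07 (1.69 to 9.21). Pkhd1-high tumour had 68 UMIs (4.16 CPM) and ductal nuclei 44 (8.24 CPM), 6.44-fold (3.83 to 11.3) and 12.7-fold (7.29 to 23.1) of hepatocytes. Endothelial nuclei, at 18.3 CPM (12.8 to 25.3), were above all of these and above free RNA at 4.50 CPM, so that among these classes hepatocytes had the lowest Pck2. Gm10876 overlaps Pck2 on the other strand, as Lrfn4 does Pcx and Plbd2 and Gm15690 do Sds, and Slc37a4 spans Mir7085 on its own strand. Whether the counting used strand is not stated, so whether reads of the opposite-strand pairs were kept apart is not known.

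**Figure D3:**
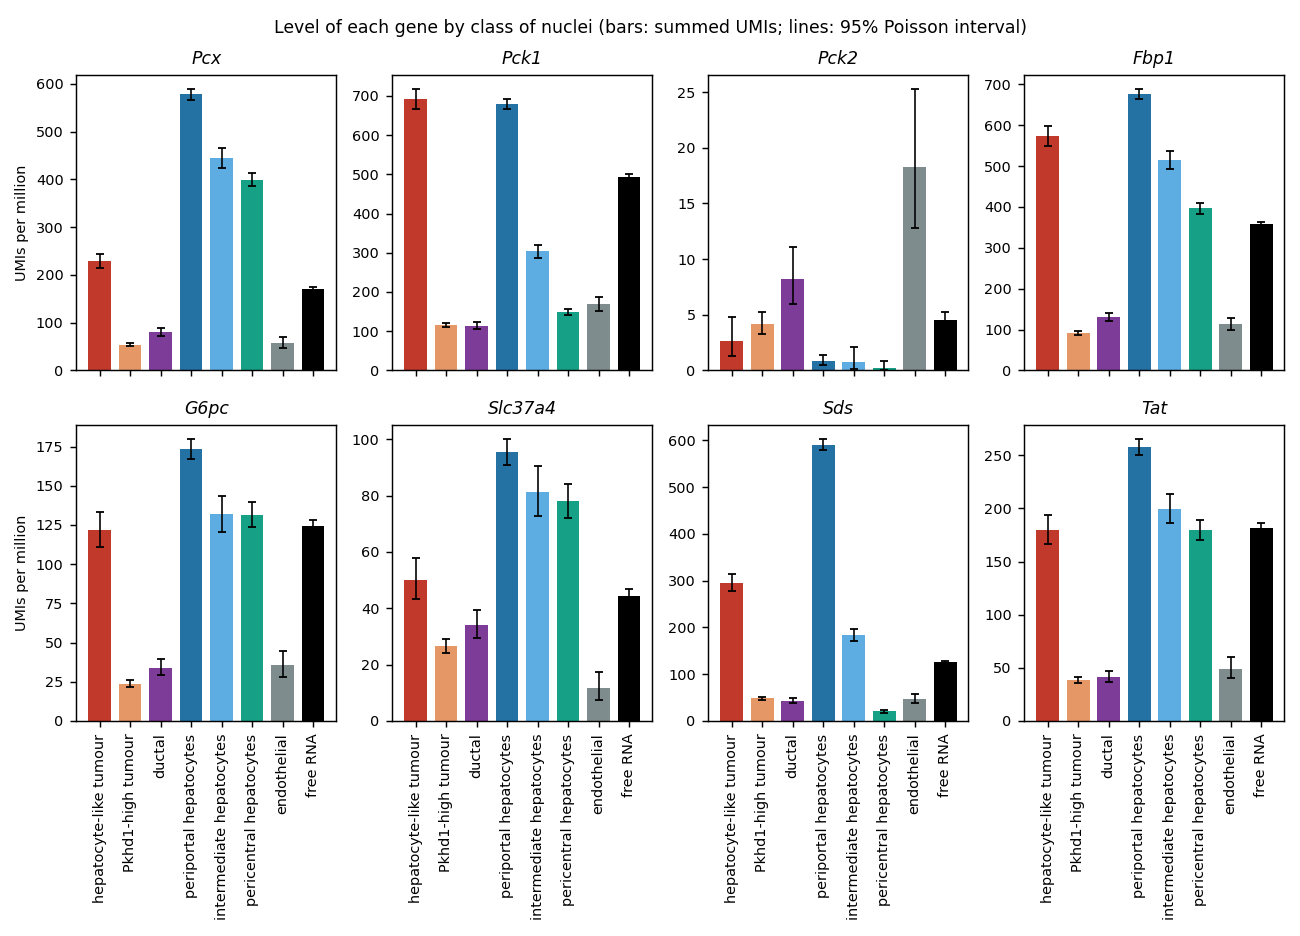
Level of each gene in CPM, summed over the nuclei of a class, with exact 95% Poisson intervals as lines; bars start at 0 and scales differ between genes. Pkhd1-high tumour and ductal bars stand near the endothelial bar for most genes, while Pck2 is highest in endothelial nuclei.

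Pkhd1-high tumour and ductal nuclei had lower levels than hepatocytes of every gene but Pck2. Of the 8 genes, 7 were at least 2-fold lower in Pkhd1-high tumour than in hepatocytes, where 15.8% of 16815 genes were, and Pck2 was the 1 gene at least 2-fold higher, where 25.9% were. In ductal nuclei the counts were also 7 lower, where 13.1% of 16082 genes were, and 1 higher, where 27.3% were. The median log2 ratio of the 8 genes was -2.59 in Pkhd1-high tumour and -2.15 in ductal nuclei, against 0.23 and 0.28 over all genes tested.

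In Pkhd1-high tumour Pcx was at 54.0 CPM (50.5 to 57.7), 9.43-fold (8.81 to 10.1) lower than in hepatocytes. Sds at 48.2 CPM was 7.75-fold (7.21 to 8.34) lower, G6pc at 23.8 CPM was 6.54-fold (5.90 to 7.28) lower, Fbp1 at 91.2 CPM was 6.32-fold (5.99 to 6.66) lower and Tat at 38.3 CPM was 5.95-fold (5.48 to 6.46) lower. Pck1 at 116 CPM was 4.14-fold (3.94 to 4.34) lower, and 1 nucleus carried 325 of its 1887 UMIs. The order of these folds depended on free RNA: with its estimated part taken out, G6pc was 41.0-fold, Tat 23.6-fold, Pcx 17.9-fold, Fbp1 15.8-fold, Sds 12.3-fold and Pck1 11.8-fold lower. Ductal nuclei had Sds 8.76-fold (7.68 to 10.03) and Pcx 6.37-fold (5.79 to 7.03) below hepatocytes, with the other lower genes between 2.60-fold and 5.47-fold below. Levels of this size are near what endothelial nuclei showed. Endothelial nuclei held more haemoglobin RNA (460 CPM) than Pkhd1-high tumour (201 CPM) or ductal nuclei (293 CPM). Nearness to them therefore does not by itself place these levels at background. Against endothelial nuclei, 1 of the 8 genes (Slc37a4) was at least 2-fold higher in Pkhd1-high tumour, where 23.2% of 15390 genes were, and 1 (Pck2) at least 2-fold lower, where 14.4% were. Ductal nuclei gave the same genes against endothelial nuclei, where 21.8% and 12.3% of 13926 genes were. A count of 1 in 8 is under the share over all genes for the higher direction and near it for the lower one.

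Slc37a4 was at 26.5 CPM (24.1 to 29.1) in Pkhd1-high tumour and 34.1 CPM (29.3 to 39.4) in ductal nuclei, against 11.7 CPM (7.40 to 17.5) in endothelial nuclei, 2.27-fold (1.49 to 3.62) and 2.92-fold (1.89 to 4.72) higher, but free RNA was higher still, at 44.4 CPM. With the estimated free RNA taken out, the genes kept different parts of their levels. Slc37a4 was then at 22.7 CPM in Pkhd1-high tumour and 30.9 CPM in ductal nuclei, Pcx at 30.6 CPM and 53.7 CPM, Fbp1 at 38.0 CPM and 64.9 CPM, and Sds at 32.7 CPM and 19.03 CPM. Pck1 stood at 40.4 CPM in Pkhd1-high tumour and 6.25 CPM in ductal nuclei, Tat at 9.82 CPM and 1.72 CPM, and G6pc at 3.88 CPM and 8.08 CPM. The corrected Pck1 level of Pkhd1-high tumour still includes the nucleus with 325 of 1887 UMIs. Before correction, leaving out the 2 highest nuclei took Pck1 there from 116 CPM to 93.4 CPM. Much of the 40.4 CPM may thus rest on few nuclei. All of these were far below hepatocytes, where the corrected levels ran from 93.3 CPM for Slc37a4 to 599 CPM for Fbp1. Of Pkhd1-high tumour nuclei, 1303 held more UMIs of Kcnj16 and Slc8a3 than of Zfp804a and Hmga2, and 150 held fewer. Slc8a3 was at 463 CPM in the class, Zfp804a at 98.1 CPM and Hmga2 at 48.1 CPM, so this split favours the first group. Its sizes therefore do not measure types of tumour nuclei. Both groups were low, with Pck1 at 91.2 CPM and 119 CPM and Pcx at 55.5 CPM and 68.9 CPM. By cluster the Pck1 order was the other way. It was 106 CPM in 1179 nuclei with Slc8a3 among the leading genes and 83.7 CPM in 1012 nuclei led by Zfp804a.

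Between the tumour classes, 6 of the 8 genes (Pck1, Pcx, Fbp1, G6pc, Sds and Tat) were at least 2-fold higher in hepatocyte-like tumour than in Pkhd1-high tumour, where 13.0% of 15430 genes were, and none was at least 2-fold lower, where 11.5% were. Fbp1 was 6.29-fold (5.89 to 6.72) and Sds 6.13-fold (5.59 to 6.73) higher, and with free RNA taken out 16.4-fold and 10.3-fold. Slc37a4 was 1.89-fold (1.58 to 2.24) higher and Pck2 0.632-fold (0.290 to 1.23).

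The relative amounts of the transcripts also differed between hepatocyte-like tumour and hepatocytes. For each Pcx UMI there were 3.02 Pck1 UMIs in hepatocyte-like tumour and 0.938 in hepatocytes, 2.50 against 1.13 Fbp1 UMIs and 1.29 against 0.734 Sds UMIs. Free RNA held 2.89 Pck1, 2.09 Fbp1 and 0.734 Sds UMIs for each Pcx UMI, so its proportions of Pck1 and Fbp1 were nearer to those of the tumour class. In level, free RNA was below hepatocyte-like tumour for Pck1 (493 CPM), Fbp1 (357 CPM) and Sds (125 CPM). With free RNA taken out, Pck1 was at 736 CPM in hepatocyte-like tumour and 474 CPM in hepatocytes, and Pcx at 242 CPM and 547 CPM, so neither direction changed.

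In hepatocytes the pathway was graded from portal to central, steeply for Sds and Pck1. Of the 7 genes with 20 or more UMIs over both zones, 2 (Sds and Pck1) were at least 2-fold higher in periportal than in pericentral hepatocytes, where 4.47% of 14505 genes were, and none at least 2-fold lower, where 4.74% were. Sds was at 591 CPM (580 to 603) in periportal and 20.1 CPM (17.1 to 23.4) in pericentral hepatocytes, 29.4-fold (25.3 to 34.5), and Pck1 at 680 CPM and 148 CPM, 4.58-fold (4.32 to 4.87). The other enzymes followed the same direction less steeply: Fbp1 by 1.71-fold (1.64 to 1.77), Pcx by 1.45-fold (1.39 to 1.51), Tat by 1.44-fold (1.35 to 1.52), G6pc by 1.32-fold (1.23 to 1.41) and Slc37a4 by 1.22-fold (1.11 to 1.34). Pck2 had 14 UMIs in periportal and 2 in pericentral hepatocytes. Pericentral Sds and Pck1 lay below the endothelial levels of 47.7 CPM and 168 CPM. Endothelial nuclei held more haemoglobin RNA, at 460 CPM, than pericentral hepatocytes, at 117 CPM. With the estimated free RNA taken out, pericentral Pck1 was at 104 CPM and pericentral Sds at 6.77 CPM. Pericentral Sds was thus near background, and the size of the Sds fold is not fixed by its interval. It was 9.45-fold with classes from clusters and 94.2-fold with free RNA taken out, while that of Pck1 ran from 3.41-fold to 6.70-fold over the settings.

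**Figure D4:**
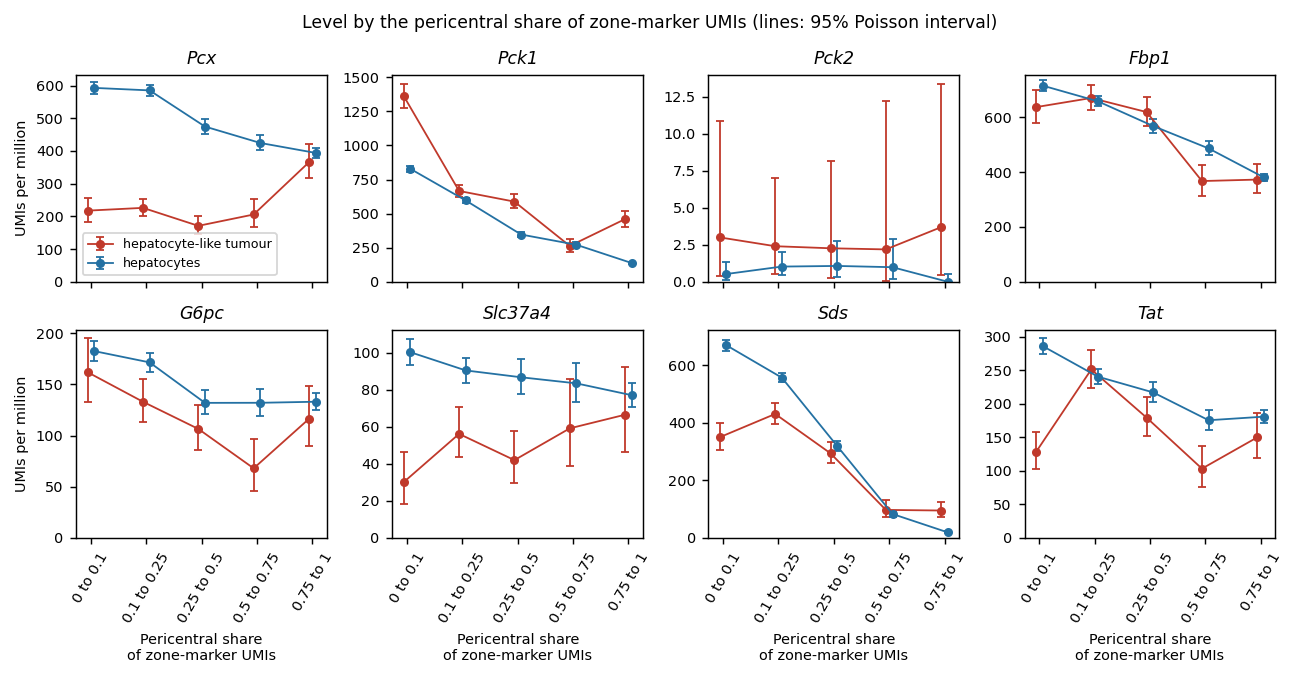
Level of each gene (CPM, with exact 95% Poisson intervals) over 5 ranges of the pericentral share of zone-marker UMIs, periportal at the left, in hepatocyte-like tumour and in hepatocytes. Sds and Pck1 decline to the right in hepatocytes; Pcx of hepatocyte-like tumour stays under that of hepatocytes in the first 4 ranges.

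The same zone markers were used to order the hepatocyte-like tumour nuclei, and 208 of 404 nuclei with a zone-marker UMI had a pericentral share under 0.25. Hepatocytes were placed much alike, with 465 of 1829 nuclei under 0.1 and 518 at 0.1 to 0.25. Zone markers themselves differed between the classes: Cdh1 was at 110 CPM in hepatocyte-like tumour and 6.70 CPM in hepatocytes, and Hsd17b13 at 309 CPM and 461 CPM. Pck1 of hepatocyte-like tumour was at 1362 CPM with a pericentral share under 0.1, 666 CPM at 0.1 to 0.25, 588 CPM at 0.25 to 0.5, 263 CPM at 0.5 to 0.75 and 460 CPM at 0.75 and over. In hepatocytes the same ranges held 828, 596, 347, 271 and 137 CPM. The first tumour value holds the nucleus with 413 Pck1 UMIs, and without it was 765 CPM (699 to 836), 0.924-fold (0.842 to 1.01) of hepatocytes. Sds of hepatocyte-like tumour was at 350 CPM in the first range and 94.2 CPM in the last, against 669 CPM and 17.9 CPM in hepatocytes, a shallower slope. Pcx had no such slope in the tumour class: it stood at 217 CPM in the first range, 2.73-fold (2.31 to 3.24) below hepatocytes, and at 366 CPM in the last, 1.08-fold (0.933 to 1.25) below, where only 29 tumour nuclei were.

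Within hepatocyte-like tumour the genes varied with the level of Ccnd3, whose lower limit chose the class. In the 69 nuclei with Ccnd3 at 80 or more per 10,000, Pck1 was at 187 CPM, Sds at 27.5 CPM and Pcx at 108 CPM, the lowest of 4 ranges for all of these genes. From 40 to 80 per 10,000 Pck1 was at 1272 CPM (834 CPM without the highest nucleus) and Sds at 425 CPM, and from 10 to 20 they were at 630 CPM and 288 CPM. Just inside the Ccnd3 limit, 23 nuclei at 10 to 12 per 10,000 had Pck1 at 655 CPM (566 to 753) and Pcx at 245 CPM (192 to 308), and 30 nuclei just outside it, at 8 to 10, had 573 CPM (497 to 657) and 322 CPM (265 to 386). Sds was at 423 CPM (352 to 504) inside and 274 CPM (222 to 334) outside, and G6pc at 104 CPM (70.7 to 148) and 195 CPM (151 to 246). The intervals on the sides of the limit did not overlap for Sds and G6pc and overlapped for the other 6 genes.

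The glycolytic enzymes that oppose gluconeogenesis had higher levels of several isoforms in the tumour classes. Of 10 genes of the opposing steps, 6 were at least 2-fold higher and 1 at least 2-fold lower in hepatocyte-like tumour than in hepatocytes, where 18.5% and 7.10% of all genes tested were, with a median log2 ratio of 1.60, against 0.17 over all genes. Pfkp, the platelet-type phosphofructokinase, was at 166 CPM in hepatocyte-like tumour and 6.60 CPM in hepatocytes, 25.1-fold (21.3 to 29.6), and the hexokinase Hk2 was 13.8-fold (11.5 to 16.7) higher. The gene that was lower, Pfkfb1, the liver form of a regulatory enzyme of phosphofructokinase, was 3.04-fold (2.62 to 3.55) lower. In Pkhd1-high tumour 6 were higher, where 25.9% of all genes were, and 3 lower, where 15.8% were, with Pfkp at 51.1-fold (44.3 to 59.2), Hk2 at 45.6-fold (39.2 to 53.2) and Pfkfb1 7.83-fold (6.97 to 8.82) lower. Hk2, which is also on the marker list of Pkhd1-high tumour, and Pfkp were in endothelial nuclei at 108 CPM and 74.6 CPM, also far above hepatocytes. Of 9 enzymes shared by both directions, 3 were at least 2-fold higher in hepatocyte-like tumour, where 18.5% of all genes were, and none lower, where 7.10% were. They were led by Pgk1 at 3.04-fold (2.68 to 3.44) and Pgam1 at 2.71-fold (2.23 to 3.29), but both were higher still in free RNA than in the tumour class. In Pkhd1-high tumour 6 of the 9 were at least 2-fold higher, where 25.9% of all genes were, led by Pgk1 and Eno1. None was at least 2-fold lower, where 15.8% were. The median log2 ratio of these enzymes was 0.83 in hepatocyte-like tumour and 1.23 in Pkhd1-high tumour, against 0.17 and 0.23 over all genes.

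Enzymes of amino acid breakdown were lower in Pkhd1-high tumour than in hepatocytes, as Sds and Tat were. In hepatocyte-like tumour none of 13 was at least 2-fold higher and 1 was lower than in hepatocytes, where 18.5% and 7.10% of all genes were, with a median log2 ratio of -0.49, against 0.17: Tdo2, tryptophan dioxygenase, was 2.36-fold (2.14 to 2.61) lower. In Pkhd1-high tumour 13 of 13 were at least 2-fold lower, where 15.8% of all genes were, with a median log2 ratio of -2.38, against 0.23. Among them Gldc was 9.48-fold (8.51 to 10.6), Cth 8.61-fold (7.05 to 10.6) and Hgd 8.40-fold (7.79 to 9.07) lower, with intervals that overlap. Of 16 genes of substrate entry and glucose exit, none was at least 2-fold higher in hepatocyte-like tumour, where 18.5% of all genes were. On the lower side there was 1, near the 7.10% over all genes, the glycerol channel Aqp9 at 2.08-fold (1.88 to 2.31). In Pkhd1-high tumour 6 were lower, against 15.8% of all genes, led by Aqp9 and Gls2. The lactate and pyruvate carrier Slc16a1, at 2.09-fold (1.82 to 2.41), was the 1 gene of the 16 at least 2-fold higher, a smaller share than the 25.9% over all genes. Of 9 glycogen genes, 2 were at least 2-fold lower in hepatocyte-like tumour, where 7.10% of all genes were, and none higher, where 18.5% were. These were Ppp1r3b and the liver glycogen synthase Gys2, each 2.33-fold lower. The median log2 ratio of the list was -0.80, against 0.17 over all genes. On this list 3 genes, led by Gys2 and Pygl, were at least 2-fold lower in Pkhd1-high tumour, where 15.8% of all genes were. Gyg, at 3.94-fold (3.17 to 4.93), was the 1 gene at least 2-fold higher there, a smaller share than the 25.9% over all genes.

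**Figure D5:**
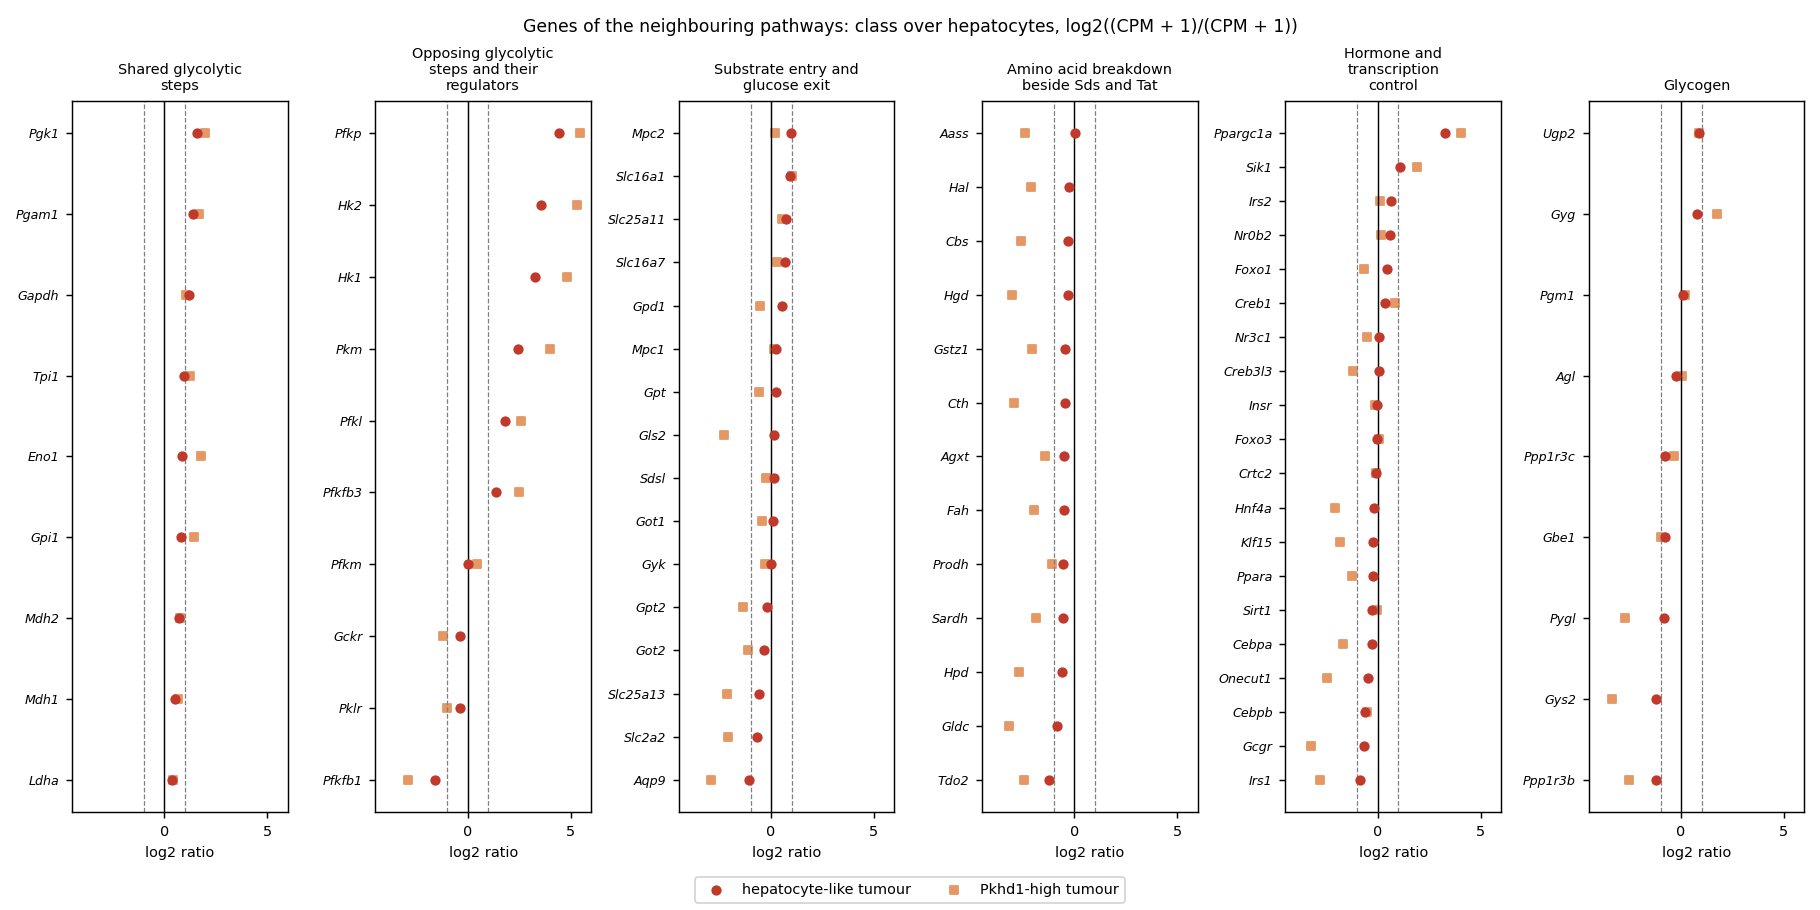
log2 ratio over hepatocytes, with 1 CPM added to both levels, of the genes in 6 neighbouring lists; circles are hepatocyte-like tumour, squares Pkhd1-high tumour, dashed lines 2-fold. Most circles lie between the dashed lines in the amino acid and hormone lists, and the squares of amino acid breakdown lie to the left for 13 of 13 genes.

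Among 20 genes of hormone and transcription control, 2 were at least 2-fold higher in hepatocyte-like tumour, a smaller share than the 18.5% over all genes, and none lower, where 7.10% were, with a median log2 ratio of -0.06, against 0.17. Ppargc1a, a coactivator known to raise Pck1 and G6pc in fasted hepatocytes, was at 847 CPM in hepatocyte-like tumour and 1473 CPM in Pkhd1-high tumour, against 86.7 CPM in hepatocytes, 9.77-fold (9.27 to 10.3) and 17.0-fold (16.3 to 17.7) higher, with endothelial nuclei at 276 CPM. Pck1 was at 691 CPM in hepatocyte-like tumour, 116 CPM in Pkhd1-high tumour and 478 CPM in hepatocytes. A link between Ppargc1a and Pck1 was not tested. Sik1, a kinase known to restrain this programme, was 2.20-fold (1.71 to 2.80) higher in hepatocyte-like tumour and 4.03-fold (3.51 to 4.63) in Pkhd1-high tumour. There 8 of the 20 were at least 2-fold lower, where 15.8% of all genes were, led by the glucagon receptor gene Gcgr at 9.93-fold (9.05 to 10.9) and the insulin receptor substrate gene Irs1 at 7.49-fold (6.50 to 8.67). In hepatocyte-like tumour Gcgr was at 180 CPM, against 291 CPM in hepatocytes, and Hnf4a and Ppara, which helped to choose the hepatocytes, are on this list. Of 3 isoforms, Fbp2, the muscle bisphosphatase, was at 3.16 CPM in hepatocyte-like tumour, 3.24 CPM in Pkhd1-high tumour and 0.272 CPM in hepatocytes, and G6pc2 was at or under 1.05 CPM in all of these.

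Between hepatocyte zones, 4 of the 13 amino acid genes (2 higher and 2 lower) and 4 of the 16 genes of substrate entry and glucose exit (3 higher and 1 lower) were at least 2-fold apart, where 4.47% of all genes were higher in periportal hepatocytes and 4.74% lower. Sdsl, the gene of a serine dehydratase-like protein, was 10.9-fold (7.19 to 17.4), Gldc 5.89-fold (5.31 to 6.54) and Got1 2.18-fold (1.92 to 2.47) higher in periportal than in pericentral hepatocytes. Prodh was 3.22-fold (2.89 to 3.59), Aqp9 3.34-fold (3.16 to 3.53), Ppp1r3c 2.50-fold (2.04 to 3.07), Hpd 2.39-fold (2.29 to 2.49) and Pfkfb3 2.09-fold (1.65 to 2.65) lower. Gls2 and Hal, at 5.88-fold and 6.93-fold higher, had been used to set the zones. None of the 20 hormone and transcription genes was at least 2-fold apart between the zones in either direction.

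Over the 23 clusters, whose levels share 1 library and its free RNA, each gene was set against 15906 genes by the Pearson correlation of its level. Pck1 was most like Gls2 (0.93), Ctcflos (0.92) and Sds (0.91), and Sds most like Ftcd (0.94), Hsd17b13 (0.92) and Fbp1 (0.92). Tat was most like Arg1 (0.97), Otc (0.97) and Fbp1 (0.97), and Fbp1 most like Kmo (0.98), F12 (0.97) and Elovl2 (0.97). Pcx had Fpgs (0.99), Mug2 (0.98) and Scara5 (0.98), G6pc had Itih3 (0.98), Cfhr2 (0.98) and Pzp (0.98), and Slc37a4 had Etfbkmt (0.97), Echdc3 (0.97) and Suclg2 (0.96). Pck2, with 409 UMIs in all, had Exoc3l4 (0.90), Pkd2 (0.90) and Lrrc49 (0.88), none of which is on the list of another member.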

How the data were processed

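Nuclear RNA of 2 samples was counted as UMIs with a 3' droplet kit. The deposited values are raw UMI counts per gene and barcode, made with Cell Ranger 5.0 on mm10 per the submitters' processing notes; the file headers give version 5.0.0 for the filtered and 4 for the unfiltered matrix. No source says how the samples were joined, and no barcode is repeated. Of 17169 filtered barcodes, which all carry 1 suffix, 16411 were kept, dropping those under 500 UMIs, under 300 genes or over 5% mitochondrial UMIs; the median depth of those kept was 2806 UMIs. Classes asked for at least 2000 UMIs. Counts were summed per class and scaled to 1000000 (CPM). Ratios carry exact intervals from splitting Poisson counts, shares carry Clopper-Pearson intervals, and both cover counting error only. A gene was called at 2-fold or more with at least 20 UMIs over both classes. Free RNA was the sum over 49929 barcodes not called as nuclei, from 500 to under 850 UMIs each. Clusters used 2000 variable genes, 30 principal components, 15 neighbours and leidenalg 0.10.2 at resolution 1. Doublets were simulated as in Scrublet among 9632 barcodes; 321 were called at a score over 0.239 and were kept. The ratio and its interval were tested on simulated Poisson counts only, which leave out the spread between nuclei.

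The members and lists were chosen with earlier results of these data known. All 8 members are named, with the 2 highest and 2 lowest genes past 2-fold of each list in the tumour and zone comparisons, and the 3 genes most like each member; genes named beyond these were chosen after their values were seen. Some genes of these lists are not reported here and are not in the counts. Promoters are RefSeq's on GRCm38.p6, and gene positions are those of GENCODE on the same build. Gyk was matched as Gk.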

Additional observations from a re-analysis of the deposited data

How the results depend on the processing

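Beside the values reported, 18 alternative settings were computed, of which 14 had been listed at the start and 4 were chosen after seeing the data. They gave 180 further counts of members past 2-fold, of which 169 stayed within 1.5 times the reported count; no fold past 2-fold changed direction in any of them. For hepatocyte-like tumour against hepatocytes, the count of lower genes (reported as 1) was 2 with called doublets left out, 2 with classes from clusters, 2 at a fold of 1.5, 0 at a fold of 3, and 0 with the 4 hepatocyte genes at 6 or more or at 12 or more per 10,000; Pcx then stood at a log2 ratio of -0.99 and -0.89. The count of higher genes was 2 with classes from clusters, where Pck1 joined Pck2. For hepatocyte-like tumour against Pkhd1-high tumour, the count of lower genes (reported as 0) was 1 with at most 1% mitochondrial UMIs, 1 with Ccnd3 at 20 per 10,000, 1 at a fold of 1.5 and 1 with hepatocyte genes at 12 or more. Over the settings, the log2 ratio of hepatocyte-like tumour to hepatocytes ran from -1.44 to -0.89 for Pcx, from 0.13 to 1.25 for Pck1, from -0.13 to 0.23 for Fbp1 and from -1.14 to -0.72 for Slc37a4. No paired analysis was possible because nuclei cannot be traced to MRD-HCC 1 or MRD-HCC 2, and for the same reason no sample could be left out. The pooled matrix limits every statement to these nuclei.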
